A study of Mus musculus with 16 samples.

Results

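Microtubule-associated proteins and stathmins were followed in the cortex of mice with mutant tau and a graded loss of Trem2. The set was chosen by gene symbol and holds 9 genes of the 24060 listed: the microtubule-associated proteins Map1a, Map1b, Map2, Map4 and Map6 and the stathmins Stmn1, Stmn2, Stmn3 and Stmn4. All 9 were above 0 in every library, and all 9 passed the filter on low values (mean RPKM of at least 1) that left 12015 genes to test. RPKM is reads per kilobase of gene, scaled to the reads of the library. Cortical tissue came from 16 mice of 8 to 9 months, 4 per genotype, with 2 females and 2 males in each, on a strain labelled C57BL/6; C3. Knockouts were P301S+ TREM2-/- and carried the P301S tau transgene without Trem2. Heterozygotes were P301S+ TREM2+/- and carried the transgene with 1 Trem2 allele. P301S+ TREM2+/+ mice carried the transgene with both Trem2 alleles, and controls were TREM2+/+ mice without the transgene. The labels do not name the promoter of the transgene or the cells that it is active in. Trem2 encodes a receptor of microglia, the macrophages of the brain, and the comparisons ask what its partial or complete loss changes in a cortex with tau pathology.

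Microtubules are hollow polymers of tubulin that carry transport along axons and dendrites. Microtubule-associated proteins bind the polymer, bundle it and slow its disassembly, and tau, the product of Mapt, is one of them. Stathmins act the other way: they bind free tubulin, keep it out of the polymer and favour shrinkage. Map1a and Map1b are large proteins cut from polyprotein precursors, with Map1b prominent in growing axons and Map1a in mature neurons. Map2 is the main such protein of dendrites, Map4 is found in many cell types outside neurons, and Map6 makes microtubules resistant to cold. Stmn1 is cytosolic, while Stmn2, Stmn3 and Stmn4 are membrane-anchored and enriched in neurons, and Stmn2 is known for its part in axon growth and regeneration.

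The promoters of Map1a, Map1b, Map2 and Map4 are shown here. Over the 15 libraries without control replicate 3, the highest rank correlations among the 9 genes were those of Map1a with Map1b and with Map2, and the most negative were those of Map4 with these 3, as given below. Map6 and Stmn1, the closest pair with all 16 libraries, had no entry. Sequences are from RefSeq, build GRCm38.p6, and run from 250 bases before to 50 bases after the RefSeq transcription start, 5′ to 3′ on the gene's own strand. The gene spans given below are from another annotation, GENCODE, whose starts differ. The Map1b window lies wholly upstream of the span given for that gene, and the Map4 window shown lies wholly inside its span. The RefSeq promoter table used here had entries for Map1a, Map1b, Map2, Map4 and Stmn3. Map1a is at chr2:121289352-121289651 on the plus strand, Map1b at chr13:99516553-99516852 on the minus strand, Map2 at chr1:66175079-66175378 on the plus strand and the first of the Map4 start sites at chr9:109931524-109931823 on the plus strand. Capitals mark matches, on either strand, to 4 motifs: the GC box, with the letters GGGCGG; the box with the letters CCAAT; the TATA box, searched as TATAAA; and the cAMP response element, searched as TGACGTCA. Adjoining capitals can hold more than 1 match.
Map1a: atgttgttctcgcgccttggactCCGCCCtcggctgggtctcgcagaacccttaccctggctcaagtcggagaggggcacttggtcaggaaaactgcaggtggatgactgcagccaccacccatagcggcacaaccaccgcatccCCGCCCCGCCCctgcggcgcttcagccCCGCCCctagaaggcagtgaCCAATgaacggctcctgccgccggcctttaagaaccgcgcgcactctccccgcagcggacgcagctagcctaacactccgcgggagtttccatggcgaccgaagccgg
Map1b: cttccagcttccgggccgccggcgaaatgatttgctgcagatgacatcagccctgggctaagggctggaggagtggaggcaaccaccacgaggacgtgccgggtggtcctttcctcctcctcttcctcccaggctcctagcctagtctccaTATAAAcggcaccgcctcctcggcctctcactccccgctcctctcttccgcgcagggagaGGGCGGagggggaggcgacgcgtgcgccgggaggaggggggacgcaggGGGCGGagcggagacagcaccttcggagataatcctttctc
Map2: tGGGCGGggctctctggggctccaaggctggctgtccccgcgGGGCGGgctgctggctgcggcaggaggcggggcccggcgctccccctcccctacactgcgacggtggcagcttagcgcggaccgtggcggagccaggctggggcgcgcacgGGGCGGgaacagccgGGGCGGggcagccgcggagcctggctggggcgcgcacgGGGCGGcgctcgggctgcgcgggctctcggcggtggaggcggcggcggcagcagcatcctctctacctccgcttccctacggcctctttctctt
Map4: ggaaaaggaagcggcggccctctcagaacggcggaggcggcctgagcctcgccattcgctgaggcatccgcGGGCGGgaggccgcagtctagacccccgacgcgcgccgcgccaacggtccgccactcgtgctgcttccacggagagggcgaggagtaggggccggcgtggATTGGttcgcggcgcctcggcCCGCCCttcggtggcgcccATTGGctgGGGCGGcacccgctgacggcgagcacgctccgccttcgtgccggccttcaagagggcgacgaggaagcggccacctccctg
The GC box was found 4 times in the Map1a window, 2 times in that of Map1b, 5 times in that of Map2 and 3 times in that of Map4, against at least 1 match in 35.7% of the 32851 promoters of the same length. CCAAT was found 1 time for Map1a and 2 times for Map4, and 37.4% of all promoters hold it. TATAAA was found 1 time, in Map1b, and 13.6% of promoters hold it. None of these 4 windows held the cAMP response element, which 1.79% of promoters hold. All 4 were rich in G and C, at 65.7% in Map1a and Map1b, 77.7% in Map2 and 73.3% in Map4, against a median of 52.7% over all promoters. The Stmn3 window held none of these motifs and 49.7% G and C. The second Map4 start site, not shown, held no GC box, 1 CCAAT match and 46.0% G and C, so the values above are those of the first. These matches are descriptions of the letters and were not tested against the levels.

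Libraries were made from total RNA with a kit that reads a short stretch at the 3' end of each transcript, and they held 2552467 to 14473181 reads. 1 control library, replicate 3 from a female, stood apart from the other 15, and values without it are given beside those that it moves most. In that library 16.4% of all genes tested were at least 2-fold higher than the mean of the other 3 controls, and 33.0% were at least 2-fold lower. Trem2 averaged 2.09 ± 1.11 RPKM in knockouts, 12.9 ± 8.98 in heterozygotes, 27.0 ± 8.69 in P301S+ TREM2+/+ mice, against 12.4 ± 5.53 in controls, with the SD over 4 mice of each genotype, or 9.82 ± 2.39 in the 3 controls other than replicate 3. Mapt, the mouse tau gene, averaged 101.9 ± 8.42 RPKM in knockouts, 101.9 ± 6.37 in heterozygotes, 103.3 ± 15.3 in P301S+ TREM2+/+ mice, against 129.5 ± 41.1 in all 4 controls or 110.1 ± 16.1 in those 3. The labels do not say if transgene reads count toward Mapt. All 13 neuron markers were above 0 in every library. Their summed level was 4164 to 4989 RPKM in knockouts, 3621 to 4859 in heterozygotes, 3602 to 4731 in P301S+ TREM2+/+ mice, against 4535 to 5163 in controls other than replicate 3. The 8 oligodendrocyte markers summed to 817 to 1197 RPKM in knockouts, 787 to 950 in heterozygotes, 685 to 955 in P301S+ TREM2+/+ mice, against 545 to 708 in controls. Striatal markers were present in every group, at 387 to 1773 RPKM in knockouts, 224 to 1165 in heterozygotes, 743 to 1453 in P301S+ TREM2+/+ mice and 232 to 987 in controls, and choroid plexus markers spanned 69.9 to 1796 RPKM over all groups. The part of these tissues in the values below was not tested. These are bulk samples, in which fewer cells of a type and less RNA per cell cannot be told apart. Values per mouse are given below in the order of replicates 1 to 4, which are female, female, male and male in the 3 P301S groups and male, female, female and male in controls.

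Map1a (chr2:121289600-121310832, plus strand, GRCm38) was lowest in knockouts. It stood at 32.5, 38.8, 25.1 and 34.5 RPKM in knockouts, 40.3, 44.1, 38.7 and 39.7 in heterozygotes, 58.0, 53.0, 39.4 and 45.3 in P301S+ TREM2+/+ mice, against 28.8, 47.5, 151.2 and 43.0 in controls. All 4 knockouts lay below all 4 P301S+ TREM2+/+ mice, the highest knockout at 38.8 and the lowest P301S+ TREM2+/+ mouse at 39.4 RPKM, while knockouts and heterozygotes overlapped by a narrow margin. Map1a was the 1 gene of the 9 whose groups did not overlap in this comparison, and the groups did not overlap in either direction for 7.62% of all genes tested. Its means were 32.7 ± 5.73 RPKM in the knockouts, against 48.9 ± 8.22 among P301S+ TREM2+/+ mice (SD, n = 4 each). The limma difference was -0.57 on the log2(RPKM + 1) scale (SE 0.31, 95% interval -1.23 to 0.10), with an adjusted p of 0.556, so it did not pass. Without control replicate 3, which enters this comparison through the shared estimate of the spread, the difference stayed at -0.57 with an SE of 0.14 and an adjusted p of 0.072 by limma. With limma array weights, which count a variable library less, it was -0.62 with an adjusted p of 0.042. This was the 1 call of any of the 9 genes under any setting tried. Array weights called 690 of the 12015 genes tested in this comparison, against 1 in the main fit, so the call is not particular to Map1a. The summed level of 6 endothelial markers also differed without overlap, at 43.9 to 49.0 RPKM in knockouts and 53.7 to 62.6 in P301S+ TREM2+/+ mice. No other marker sum separated these groups. Of the 6 markers, 4 had negative and 2 positive differences in this comparison and 0 were called, so the sum need not hold for each. The part of this sum in the Map1a result was not tested. Exon sequence of Map1a overlaps the span of Ppip5k1 and that of the antisense gene Gm14978, both on the opposite strand. The labels do not say if reads were counted by strand, and Gm14978 has no values here. Ppip5k1 was at 1.32 to 4.46 RPKM across the 16 libraries.

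Control replicate 3 set the Map1a comparison with controls. The other 3 controls averaged 39.7 ± 9.78 RPKM (SD, n = 3), and replicate 3 was 3.80-fold above them. The P301S effect, P301S+ TREM2+/+ minus control, was -0.18 (SE 0.31, 95% interval -0.84 to 0.49) with all libraries and 0.26 without that control (limma adjusted p 0.814 and 0.322). The direction therefore turned with 1 library. Without it the order of the means was P301S+ TREM2+/+, heterozygotes at 40.7 ± 2.36 RPKM, controls and knockouts, and no neighbouring pair in that order differed beyond the test.

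Map1b (chr13:99421446-99516540, minus strand) was highest in P301S+ TREM2+/+ females. It stood at 75.6, 92.5, 72.3 and 81.0 RPKM in knockouts, 89.6, 86.9, 86.5 and 98.7 in heterozygotes, 128.2, 111.4, 92.3 and 87.8 in P301S+ TREM2+/+ mice, against 70.5, 76.0, 70.4 and 98.8 in controls. Both P301S+ TREM2+/+ females lay above every other library, and the males of that genotype lay among the heterozygotes. The P301S effect was 0.40 (SE 0.16, 95% interval 0.06 to 0.75), with an unadjusted p of 0.024 and an adjusted p of 0.313 by limma, and it was 0.34 without control replicate 3 (adjusted p 0.212). The complete loss difference, knockouts minus P301S+ TREM2+/+, was -0.37 (SE 0.16), with an unadjusted p of 0.036 and an adjusted p of 0.472 by limma (0.123 without that control). Neither passed the test. In control replicate 3 Map1b was 0.861 times the mean of the other controls, so that Map1a and Map1b, which are close relatives, parted in that library.

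Map2 (chr1:66175273-66442583, plus strand) varied least of the 9. It stood at 262.8, 287.9, 241.2 and 290.5 RPKM in knockouts, 320.7, 338.1, 275.8 and 317.8 in heterozygotes, 339.5, 265.5, 259.3 and 295.7 in P301S+ TREM2+/+ mice, against 264.9, 309.6, 276.5 and 341.6 in controls. Its highest library was 1.42 times its lowest, and all 4 groups overlapped. The P301S effect was -0.04 (95% interval -0.36 to 0.28) and the complete loss difference -0.10 (95% interval -0.42 to 0.23), with limma adjusted p of 0.919 and 0.862. The P301S effect was -0.09 without control replicate 3 (limma adjusted p 0.701). The antisense gene Gm10558 overlaps an exon of Map2.

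Map4 (chr9:109931460-110083955, plus strand) ran against the others. It stood at 39.1, 37.5, 40.9 and 38.1 RPKM in knockouts, 32.8, 38.1, 39.6 and 35.7 in heterozygotes, 27.1, 30.4, 42.7 and 36.9 in P301S+ TREM2+/+ mice, against 42.4, 35.9, 21.9 and 36.7 in controls. Its 3 lowest libraries were control replicate 3 and both P301S+ TREM2+/+ females, and knockouts kept within a narrow band of 38.9 ± 1.51 RPKM (SD, n = 4). The groups overlapped. The complete loss difference was 0.20 (95% interval -0.15 to 0.55; limma adjusted p 0.712), and the P301S effect was 0.02 with all libraries and -0.14 without control replicate 3 (limma adjusted p 0.969 and 0.506).

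Map6 (chr7:99267447-99337137, plus strand) differed mainly in control replicate 3. It stood at 11.9, 8.52, 8.81 and 11.5 RPKM in knockouts, 10.6, 12.2, 9.38 and 9.94 in heterozygotes, 11.2, 11.1, 7.89 and 9.79 in P301S+ TREM2+/+ mice, against 10.3, 14.6, 44.8 and 12.1 in controls. The P301S groups overlapped throughout, with means of 10.2 ± 1.76 RPKM in knockouts, 10.5 ± 1.20 in heterozygotes and 10.001 ± 1.55 among P301S+ TREM2+/+ mice (SD, n = 4 each), and control replicate 3 was 3.63-fold above the other controls. Over all 12 P301S mice against the 4 controls the difference was -0.69 (SE 0.24, 95% interval -1.20 to -0.18), with an unadjusted p of 0.012 and an adjusted p of 0.284 by limma. Without that library it was -0.28 (SE 0.12; limma adjusted p 0.501).

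**Figure D1:**
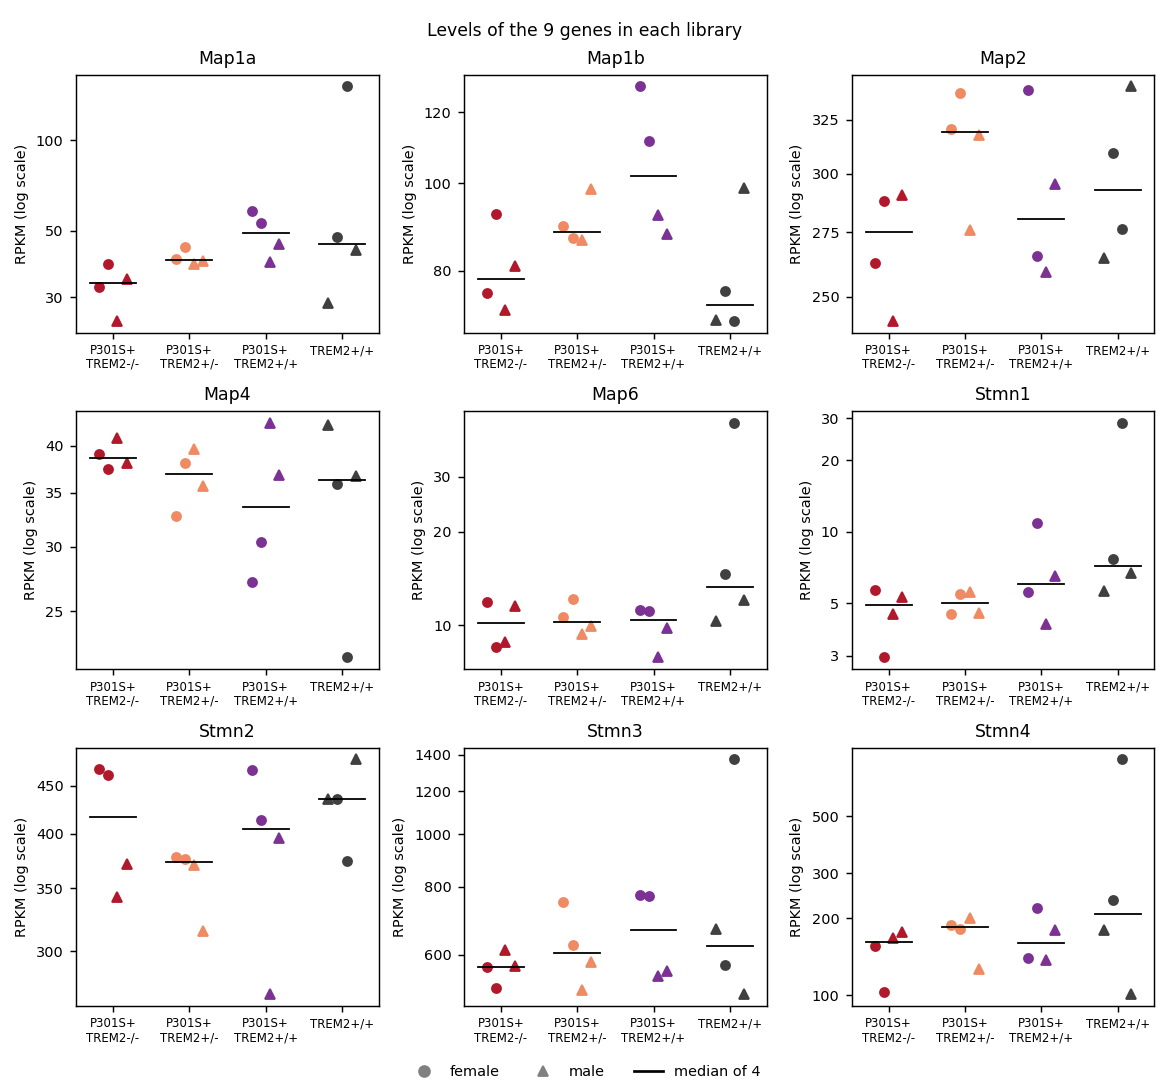
Levels in RPKM (log axis, a scale of its own in each panel) of the 9 genes in 16 libraries, by genotype, with circles for females, triangles for males and a line at the median of 4. Control replicate 3 is the highest point for Map1a (151.2), Map6 (44.8), Stmn1 (28.7), Stmn3 (1371.6) and Stmn4 (834.0) and the lowest for Map4 (21.9), and all 4 knockouts lie below all 4 P301S+ TREM2+/+ mice for Map1a.

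Stmn1 (chr4:134468320-134473843, plus strand) rested on few reads, 8 to 159 per library. It stood at 5.69, 2.96, 4.52 and 5.31 RPKM in knockouts, 4.50, 5.45, 5.59 and 4.55 in heterozygotes, 5.56, 10.8, 4.09 and 6.48 in P301S+ TREM2+/+ mice, against 5.60, 7.69, 28.7 and 6.67 in controls. Its lowest value, in knockout replicate 2, came from 8 reads, with an exact Poisson 95% interval of 1.28 to 5.83 RPKM that reaches past the other 3 knockouts and covers counting error only. All 4 heterozygotes lay below all 4 controls, the highest heterozygote at 5.59 and the lowest control at 5.60 RPKM, a gap far smaller than their counting error. Stmn1 was the 1 gene of the 9 without overlap there, against 4.39% of all genes tested. The difference over all P301S mice against control was -0.77 (SE 0.30, 95% interval -1.42 to -0.13), with an unadjusted p of 0.021 and an adjusted p of 0.284 by limma. It was -0.31 without control replicate 3 (limma adjusted p 0.636). An exon of Stmn1 overlaps the miRNA gene Gm23634.

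Stmn2 (chr3:8509360-8561606, plus strand), the stathmin of axon growth, was not raised in control replicate 3. It stood at 468.8, 461.7, 342.8 and 371.7 RPKM in knockouts, 377.5, 376.0, 370.4 and 314.9 in heterozygotes, 467.4, 413.4, 270.0 and 395.5 in P301S+ TREM2+/+ mice, against 436.0, 435.2, 374.3 and 479.9 in controls. In all 3 P301S groups both females lay above both males, which was not so in controls. How many of all genes share that pattern was not computed. The genotype groups overlapped. The P301S effect was -0.18 (95% interval -0.56 to 0.20; limma adjusted p 0.644), or -0.29 without control replicate 3 (adjusted p 0.263), and the complete loss difference was 0.10 (95% interval -0.27 to 0.48; limma adjusted p 0.873). Over all P301S mice against control it was -0.17 with all libraries and -0.28 without control replicate 3 (limma adjusted p 0.502 and 0.501).

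Stmn3 (chr2:181306459-181314500, minus strand) stood at 568.9, 522.1, 611.7 and 572.6 RPKM in knockouts, 748.9, 625.5, 518.2 and 582.4 in heterozygotes, 774.5, 771.2, 549.8 and 561.5 in P301S+ TREM2+/+ mice, against 670.1, 574.3, 1371.6 and 508.4 in controls. Both P301S+ TREM2+/+ females and 1 heterozygous female lay above all other libraries except control replicate 3, which was 2.35-fold above the other controls. The P301S effect was -0.14 (95% interval -0.66 to 0.39) with all libraries and 0.14 without that control, and the limma adjusted p was 0.817 and 0.594.

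Stmn4 (chr14:66344296-66361680, plus strand) stood at 156.6, 102.7, 167.2 and 176.6 RPKM in knockouts, 189.2, 181.0, 200.9 and 126.4 in heterozygotes, 139.6, 220.0, 137.5 and 179.4 in P301S+ TREM2+/+ mice, against 180.9, 235.7, 834.0 and 101.3 in controls. Control replicate 3 was 4.83-fold above the other controls, which themselves differed more than 2-fold. The P301S effect was -0.56 (SE 0.44, 95% interval -1.50 to 0.38; limma adjusted p 0.554) with all libraries. Without that library it was 0.0052, with an adjusted p of 0.995 by limma.

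Control replicate 3 thus split the set. At least 2-fold above the other controls were 5 of the 9 genes, Map1a, Map6, Stmn1, Stmn3 and Stmn4, and Map1b, Map2, Stmn2 and Map4 stood at 0.861, 0.906, 0.831 and 0.571 times their mean. Ratios within a library show the split without any scaling between libraries. Map1a over Map1b was 0.347 to 0.430 in knockouts, 0.402 to 0.507 in heterozygotes, 0.427 to 0.515 in P301S+ TREM2+/+ mice, 0.408 to 0.626 in the other 3 controls and 2.15 in control replicate 3. Stmn4 over Stmn2 was 2.23 in that library, and its highest value elsewhere was 0.542. The neuron markers summed to 5846 RPKM there. Microglial markers summed to 1144 RPKM against 304 to 398 in the other controls, and astrocyte markers to 476 RPKM against 619 to 707. The highest markers can set such a sum. The median P301S effect of the 10 microglial markers was 0.68 with that library and 0.62 without it. Over all P301S mice against control the median was 0.43 with it and 0.55 without. The sum therefore need not hold for each microglial marker. The part of these marker levels in the split was not tested.

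**Figure D2:**
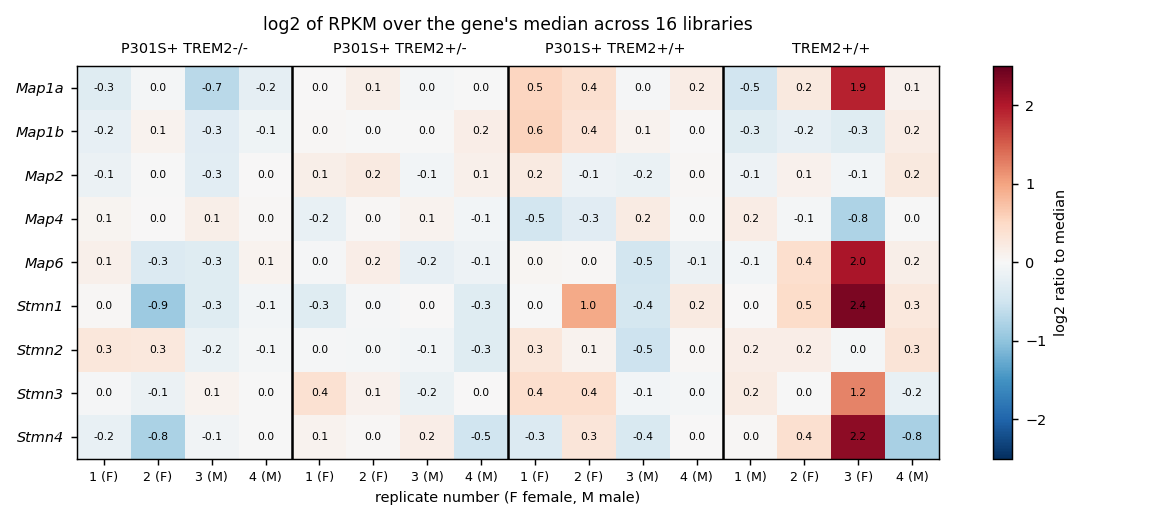
log2 of each gene's RPKM over its own median across the 16 libraries, genes in lines and libraries in columns by genotype and replicate (F female, M male). Control replicate 3 is high for Map1a, Map6, Stmn1, Stmn3 and Stmn4 and low for Map4, and the females of P301S+ TREM2+/+ are high for Map1a, Map1b and Stmn3 and low for Map4.

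None of the 9 genes passed the limma test in any of the 7 genotype comparisons. In the P301S effect 0 of 9 were called, against 0.0% of all genes tested, and 7 of 9 differences were negative with a median of -0.18, against a median of 0.06 over all genes. When control replicate 3 was left out, 5 of 9 were negative with a median of -0.07, against 0.01 over all genes. Of all genes tested, 57.1% had a positive P301S effect with all libraries and 52.2% without that one. The 2 groups did not overlap for 0 of the 9 genes, against 4.83% of all genes. In partial loss, heterozygotes minus P301S+ TREM2+/+, 0 of 9 were called, against 0.0%, with differences between -0.30 for Stmn1 and 0.11 for Map2. All groups overlapped there, whereas 2.85% of all genes tested did not. In complete loss 0 of 9 were called, against 0.00832% of all genes, and the median was -0.17, against -0.02 over all genes. In knockouts against heterozygotes 0 of 9 were called, against 0.0%, and all groups overlapped, whereas 5.37% of all genes tested did not. The differences lay between -0.32 for Map1a and 0.18 for Stmn2.

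Against controls the picture was the same by this test. In heterozygotes 0 of 9 were called, against 0.0% of all genes, with limma adjusted p from 0.497 to 0.821. With control replicate 3 left out, the heterozygote differences of Map1a, Map6, Stmn1 and Stmn4 were 0.01, -0.24, -0.36 and 0.05, against -0.42, -0.65, -0.83 and -0.51 with it. In knockouts 0 of 9 were called, against 0.0%, and the differences of Map1a, Map6, Stmn1 and Stmn4 were -0.74, -0.70, -0.96 and -0.73, each with a limma adjusted p of 0.450. Leaving out control replicate 3, these 4 differences were -0.31, -0.29, -0.49 and -0.16, each with a limma adjusted p of 0.9995. All groups overlapped in that comparison, whereas 3.79% of all genes tested did not. Over all P301S mice 0 of 9 were called, against 0.00832%, and none was without overlap, against 0.275%. These comparisons share their controls, replicate 3 included. Without it, limma called 0 of 9 in the P301S effect, against 0.0416% of all genes, 0 of 9 in complete loss, against 0.108%, and 0 of 9 over all P301S mice against control, against 0.0166%. At an unadjusted limma p under 0.05 and with all libraries, 2 of the 9 passed in the P301S effect (Map1b and Map6). In complete loss 1 passed (Map1b), and none in partial loss. Of all genes, 13.8%, 9.90% and 2.70% passed there. Heterozygotes against control gave 2 of 9 (Map6 and Stmn1), against 9.60% of all genes. Knockouts against control gave 3 (Map1a, Map6 and Stmn1), against 9.71%. All P301S mice against control gave 2 (Map6 and Stmn1), against 16.4%, and knockouts against heterozygotes none, against 3.42%. Map1a, Map6 and Stmn1 were each at least 2-fold higher in control replicate 3 than the mean of the other controls. A p that misses the threshold does not show that the levels were alike: the interval of Map1a in complete loss reaches -1.23 on this log2 scale.

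**Figure D3:**
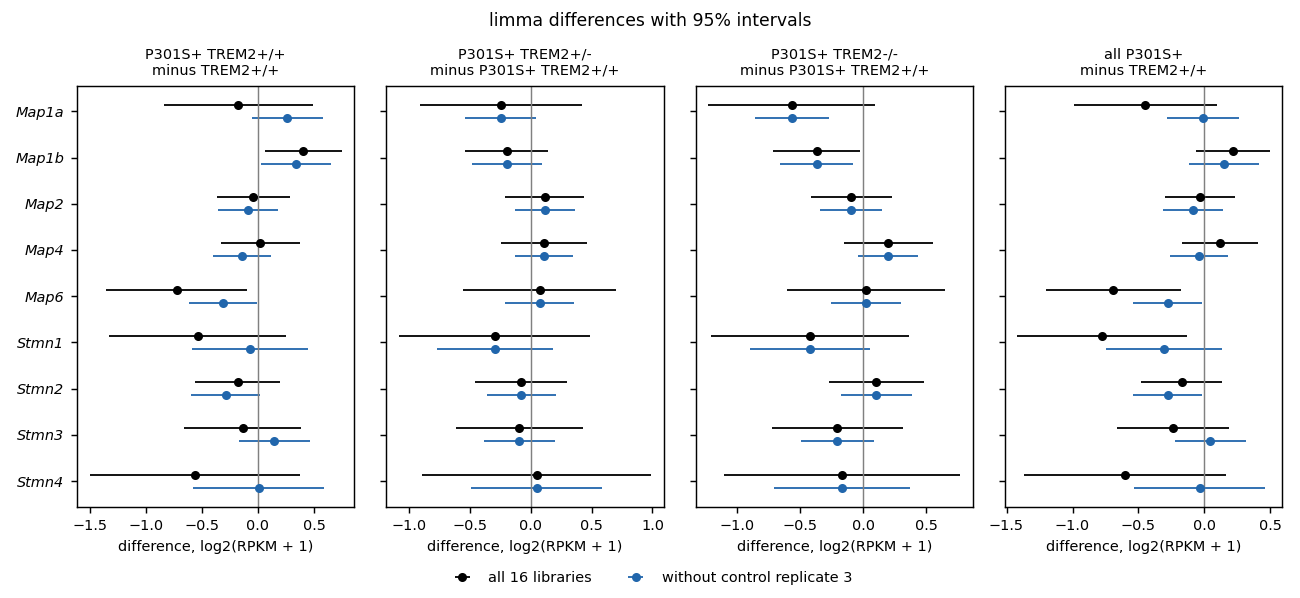
limma differences on the log2(RPKM + 1) scale with 95% intervals for the 9 genes in 4 comparisons, named above each panel, with all 16 libraries (black) and without control replicate 3 (blue). Points of Map1a, Map4, Stmn3 and, at 0.0052, Stmn4 lie on the other side of 0 without that library in the P301S effect, and the Map1a interval in complete loss has its ends at -0.86 and -0.28 without it, and at -1.23 and 0.10 with it.

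No sex difference passed the test. Over all genotypes the female minus male difference was 0.50 for Map1a (SE 0.22, 95% interval 0.03 to 0.97), with an unadjusted p of 0.038 and an adjusted p of 0.337 by limma, and -0.27 for Map4 (SE 0.12), with an unadjusted p of 0.039 and an adjusted p of 0.340. None of the 9 passed, against 0.0416% of all genes, and the 2 of 9 at an unadjusted p under 0.05 compare with 14.1% of all genes. Without control replicate 3 these values were 0.28 and -0.18 (limma adjusted p 0.249 and 0.312). Stmn2 (0.25) and Map6 (0.21) were then also at an unadjusted p under 0.05, with adjusted p of 0.281 and 0.326. That made 4 of the 9 in this fit. The 14.1% over all genes is from the fit with all libraries. The share for this fit is not given here, so the 4 cannot be set against it. Within P301S+ TREM2+/+ mice, Map1a averaged 55.5 RPKM in the 2 females and 42.3 in the 2 males, Map1b 119.8 and 90.1, Stmn3 772.8 and 555.6, and Map4 28.8 and 39.8. Both females lay on the same side of both males in these 4 genes, and above both males also for Map6 and Stmn2. With 2 mice against 2, such a separation is common by chance. Its share over all genes was not computed, so it cannot be read as a trait of these genes. No difference between the sexes in a genotype effect was called for any of the 9.

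The genes varied together in part. Over the 15 libraries without control replicate 3, Spearman's rho was 0.69 between Map1a and Map1b, 0.65 between Map1a and Map2, and -0.80 between Map1a and Map4. Map4 also ran against Map1b (-0.69) and Map2 (-0.70). Map6 and Stmn1 had a rho of 0.59, while Stmn2 and Stmn3 had one of 0.00. With all 16 libraries, including the control in which Map1a and Map1b part, their rho was 0.39, that of Map1a with Map4 was -0.83, and the highest was that of Map6 with Stmn1, at 0.66. These are descriptions over libraries that share genotype, sex and scaling to the same total.

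The genes most like each of the 9 over 16 libraries, by the same measure, were mostly outside this pathway. Map1a was most like Braf (0.94), a kinase, 1700003M07Rik (0.91) and Dnajc5 (0.91), a chaperone of synaptic vesicles. Map1b was most like Ctu1 (0.92), Ankrd17 (0.91) and Copa (0.90), a coat protein of Golgi vesicles. Map2 was most like Mfsd2a (0.83), a lipid transporter, Mtch2 (0.80) and Tmem35 (0.80). Map4 was most like 9530068E07Rik (0.98), Dpm1 (0.94) and Tor1a (0.91). Map6 was most like Pitpnm2 (0.93) and Ptk2b (0.92), a tyrosine kinase, with Tubg2 (0.91), a gamma-tubulin, as the third. Among stathmins, Stmn1 was most like Pacs1 (0.89), Senp2 (0.89) and Prr7 (0.88). Stmn2 was most like Nwd2 (0.86), Slc30a3 (0.79), the zinc transporter of synaptic vesicles, and Zfp697 (0.77). Stmn3 was most like Dynll2 (0.93), a dynein light chain, Avpi1 (0.92) and Cry2 (0.88), and Stmn4 like Sco1 (0.91), 2310011J03Rik (0.90) and Ube2j1 (0.90).

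The rest of the microtubule genes gave no call with all libraries either. Of 15 tubulins tested, 29 other microtubule-binding proteins, 28 kinesin and dynein motor genes and 31 tubulin-modifying and severing enzymes, 0 passed in any comparison. In complete loss 14 of 15 tubulins, 20 of 29 binding proteins, 17 of 28 motors and 18 of 31 enzymes had negative differences. Their medians were -0.17, -0.07, -0.10 and -0.07, against a median of -0.02 over all genes. Of all genes tested, 46.8% had a positive difference there, and the motors and enzymes were not far from that share. Without control replicate 3, 2 of these genes passed in complete loss, both lower in knockouts. Of all 12015 genes tested, 13 (0.108%) passed in that fit. Map1lc3a, the light chain LC3 that associates with Map1 proteins and marks autophagosomes, averaged 189.6 ± 25.2 RPKM in the knockouts, against 397.7 ± 47.5 among P301S+ TREM2+/+ mice (SD, n = 4 each), a difference of -1.07 with a limma adjusted p of 0.014 without that control and 0.426 with it. Dctn1, the largest dynactin subunit, was at 13.0 ± 0.31 and 24.7 ± 6.61 RPKM in the same groups, a difference of -0.84 with a limma adjusted p of 0.018 without that control and 0.426 with it. Nde1, a dynein regulator, averaged 7.87 ± 1.07 RPKM in the knockouts, against 4.27 ± 2.95 among P301S+ TREM2+/+ mice, a difference of 0.93 that did not pass either way (limma adjusted p 0.074 and 0.426).

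In the P301S effect the smallest p-values of these lists belonged to genes that did not pass. Dcx, the microtubule-binding protein doublecortin of young neurons, averaged 12.2 ± 4.003 RPKM among P301S+ TREM2+/+ mice, against 6.40 ± 2.90 among controls (SD, n = 4 each), a difference of 0.91 (limma adjusted p 0.269), or 0.57 without control replicate 3. Tubb4b, a beta-tubulin, was at 44.7 ± 18.3 and 22.3 ± 11.1 RPKM, a difference of 1.08 (limma adjusted p 0.289), or 0.54 without that control. Tubb2b, a beta-tubulin of neurons, was at 4.99 ± 1.39 and 3.06 ± 0.22 RPKM, a difference of 0.53 (limma adjusted p 0.288) that was 0.51 without it. Klc2, a kinesin light chain, was at 11.6 ± 1.53 and 24.3 ± 16.7 RPKM, a difference of -0.81 (limma adjusted p 0.269), or -0.48 without it. The Tubb2b value moved little between the fits, and the other 3 became smaller.

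None of the other genes named by the same rule passed, with or without control replicate 3. In the P301S effect the differences were 0.47 for Map1s, -0.57 for Dync1li1, 0.58 for Tbcd and 0.41 for Ttll11. In partial loss they were positive for Tubd1 (0.34), Map7 (0.45), Nde1 (0.63) and Tbca (0.33), a tubulin-folding cofactor, and negative for Tubg1 (-0.39), Tppp (-0.19), Dctn3 (-0.36) and Ttll1 (-0.48), a glutamylase subunit. In complete loss Map7 stood at 0.55, Tubb2b at -0.45, Tubg1 at -0.42, Ttll1 at -0.61 and Cdk5 at -0.41. Over all P301S mice against control the differences were -0.65 for Tubg2, 0.40 for Tubb2b, 0.43 for Clasp2, -0.85 for Mapre3, -0.57 for Dync1li1, -0.72 for Klc2, -0.42 for Katnal1 and 0.40 for Sirt2, a tubulin deacetylase. Without control replicate 3 all were smaller in size in that comparison, though Tubb2b moved little (0.38). The others were -0.25 for Tubg2, 0.24 for Clasp2, -0.34 for Mapre3, -0.37 for Dync1li1, -0.39 for Klc2, -0.17 for Katnal1 and 0.17 for Sirt2. In the P301S effect Map1s, Dync1li1, Tbcd and Ttll11 then stood at 0.28, -0.37, 0.42 and 0.29.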

How the data were processed

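Libraries of 16 mice were prepared with a QuantSeq 3' kit, per the labels' protocols; STAR, HTSeq, edgeR, limma and mm10 are named without roles in the submitters' processing notes. The deposited values are RPKM, a unit inferred from the values, since the authors' file headers do not name it: within a gene they are whole multiples of 1 read's worth, and 100% of the 18911 genes with any read gave whole reads (tolerance 1e-05 reads or a relative 3e-07). In each file 1 line without a gene name was dropped. RPKM divides by gene length, which does not suit 3' reads, so levels were compared between libraries and not between genes. The test was limma's with a trend (version 3.58.1, under R 4.3.3), run on log2(RPKM + 1) for the 12015 genes whose mean reached 1 RPKM, with 4 genotypes and sex in the model (11 residual degrees of freedom) and Benjamini-Hochberg adjustment over all genes tested at a threshold of 0.05. The pseudocount of 1 understates the change of low genes. Sex by genotype was tested with 8 residual degrees of freedom. The code was tested on simulated data. The labels give no litter, batch or preparation day, so a batch that follows genotype cannot be told apart from it. Each library was counted as 1 mouse by its label; none was a duplicate deposit within sampling noise (chi-square per gene of at least 6.87 for any pair of 1 genotype), which does not itself show separate animals. Read numbers bound counting error only, as the labels name no molecular identifiers. Alternatives were other pseudocounts, filters, scalings and models, library weights, limma-voom on the recovered reads, and leaving out mice. The 9 genes, the lists beside them and the alternatives were chosen with earlier results of these data known. Named were all 9 genes, the list genes called in any comparison, the 2 of smallest p per list in 4 comparisons (P301S effect, partial loss, complete loss, all P301S mice against control) and the 3 genes of highest Spearman rho with each of the 9 over the 16 libraries.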

Additional observations from a re-analysis of the deposited data

Results flagged for a closer look

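Of 36 sets of 4 mice (9 genes in 4 genotypes), 4 had 1 mouse far from the other 3, by the gap to its nearest neighbour over the whole range; chance gives about 1 in 20 sets. In controls these were Map1a at 151.2 RPKM, Map6 at 44.8 RPKM and Stmn1 at 28.7 RPKM, each the highest value and each in replicate 3, so they are not independent of each other. In heterozygotes it was Stmn2 at 314.9 RPKM in replicate 4, the lowest of that genotype, against 370.4 to 377.5 RPKM in the other 3.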

How the results depend on the processing

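Over 28 settings, 1439 of 1485 values of the 9 genes kept their direction and their side of the threshold, 45 changed direction and 1 passed. Part of the values that kept their direction could not change it, so the count overstates stability. Leaving out a mouse of a genotype outside a comparison, or changing the filter, leaves that genotype difference as it was. The 1 that passed was Map1a in complete loss with array weights, the 1 gene of 9 called there (-0.62, limma adjusted p 0.042). With limma-voom quality weights on whole reads its adjusted p was 0.052, and the range over all settings was 0.042 to 0.919. The cause was not tested. With array weights the P301S effect was 0.21 for Map1a, -0.16 for Map4, 0.21 for Stmn3 and 0.0026 for Stmn4, all P301S mice against control gave -0.024 for Map4 and 0.087 for Stmn3, and partial loss gave -0.039 for Stmn4. With voom quality weights these values were 0.20, -0.13, 0.18 and 0.029, then -0.015 and 0.066, then -0.0050. Median-ratio scaling gave -0.076 for Map4 in the P301S effect, and quantile normalization gave 0.0051 for Map2 and -0.014 for Map4 there and -0.012 for Map6 in complete loss. Without control replicate 3 and both P301S+ TREM2+/+ females, the P301S effect of Map1a was 0.20, partial loss was 0.0094 for Map1b, -0.079 for Map4, 0.045 for Stmn2 and 0.11 for Stmn3, and the sex difference was -0.010 for Map1b and -0.010 for Stmn1. Leaving out each mouse in turn, the P301S effect ran from -0.41 to 0.26 for Map1a, -0.11 to 0.046 for Map2, -0.14 to 0.11 for Map4, -0.31 to 0.14 for Stmn3 and -0.95 to 0.0052 for Stmn4. All P301S mice against control ran from -0.084 to 0.052 for Map2, -0.043 to 0.21 for Map4 and -0.41 to 0.044 for Stmn3. Knockouts against heterozygotes ran from -0.19 to 0.10 for Map6, -0.26 to 0.12 for Stmn1 and -0.38 to 0.047 for Stmn4. Complete loss ran from -0.12 to 0.18 for Map6, -0.038 to 0.18 for Stmn2 and -0.34 to 0.10 for Stmn4, and partial loss from -0.12 to 0.16 for Stmn4. Counts of calls over all genes also moved: complete loss had 1 call as reported, 13 without control replicate 3, 132 with voom quality weights and 690 with array weights, and the P301S effect had 0, 5, 184 and 197. Over all settings all P301S mice against control had 0 to 68 calls, heterozygotes against control 0 to 131, knockouts against control 0 to 4, knockouts against heterozygotes 0 to 39 (39 without control replicate 3 and both P301S+ TREM2+/+ females), and partial loss 0. Unweighted limma-voom on whole reads had 1 call over all P301S mice against control and 0 in the P301S effect and in complete loss. No paired analysis was possible because the labels give no litter or other match between mice of different genotypes. The labels also carry no replicate numbers, and those used here follow the order of the samples within each genotype. Depth limits Stmn1 most, at 8 reads in 1 library, a counting CV of 35.4%.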
